A study of Mus musculus with 8 samples.

Results

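Transcripts of 40 genes that build and sulphate glycosaminoglycan chains were examined in rib chondrocytes of mouse embryos. The genes were listed by name, and 37 of the 40 had a probe set whose platform annotation gives exactly 1 symbol, out of 18193 such genes on the array. The probe set with the highest mean signal over the 8 arrays stood for the gene. Of the 37 genes, 34 passed the filter on low signals and were tested among 10989 genes. Under that filter, a mean signal of 110 over the 8 arrays, lay Chst3, Chst7 and Chst13. Xylt1 and Ndst1 were not analysed here, and Impad1 is annotated under its present symbol Bpnt2, which is given separately.

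All samples came from FVB embryos at E18.5, near birth. Rib cages were digested with collagenase and trypsin, strained, and taken into Trizol, and the cells are labelled as primary chondrocytes. The control group (4 samples) is labelled wild type and the transgenic group (4 samples) Hoxc8 transgenic. Each of 4 litters gave 1 sample of either genotype, and the litters are numbered 1 to 4 here after the replicate numbers of the labels. Embryos of a litter were grouped by genotype, so a sample may pool several. The sources used here do not give the driver of the transgene, the number of embryos in a sample or their sexes.

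Glycosaminoglycans are long sugar chains that hang from proteoglycan core proteins. Synthesis starts in the secretory pathway with a short linker on a serine of the core protein, continues with a repeating disaccharide that makes the chain chondroitin or heparan sulphate, and ends with sulphotransferases that decorate the chain. Cartilage depends on this route because aggrecan carries many chondroitin sulphate chains whose negative charge holds water, and loss of sulphate uptake or of sulphate donor causes skeletal dysplasias. Hoxc8 is a homeobox gene that acts in patterning of the trunk skeleton, and the comparison asks which transcripts differ between embryos with and without the transgene.

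Start site sequences are shown for the genes on which the results below turn. These are Papss2, which had the smallest p between genotypes and has 2 start sites in RefSeq, and Chst12 and Chst14, whose signals moved with the litter. Each stretch is the 250 bases before the start site, written 5′ to 3′ in RefSeq assembly GRCm38.p6. Capitals mark matches, on either strand, to the GC box GGGCGG or the CCAAT box. The windows were also searched for a SOX core (ACAAAG), for the TATA box motif TATAAA, and for a homeodomain core, TAATTA; these have no match in the 4 stretches, and no 2 matches overlap.
Papss2 (chr19:32595465-32595714, plus strand): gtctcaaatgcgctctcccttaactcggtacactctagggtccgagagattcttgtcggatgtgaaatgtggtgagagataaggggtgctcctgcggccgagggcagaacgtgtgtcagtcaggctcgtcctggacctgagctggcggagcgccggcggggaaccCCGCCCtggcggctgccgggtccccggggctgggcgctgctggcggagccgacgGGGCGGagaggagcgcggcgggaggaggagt
Papss2 (chr19:32619755-32620004, plus strand): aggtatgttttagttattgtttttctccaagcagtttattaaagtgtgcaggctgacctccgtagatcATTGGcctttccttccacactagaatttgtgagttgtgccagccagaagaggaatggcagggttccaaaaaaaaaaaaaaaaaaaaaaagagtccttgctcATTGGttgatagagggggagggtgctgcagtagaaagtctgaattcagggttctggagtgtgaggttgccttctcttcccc
Chst12 (chr5:140505359-140505608, plus strand): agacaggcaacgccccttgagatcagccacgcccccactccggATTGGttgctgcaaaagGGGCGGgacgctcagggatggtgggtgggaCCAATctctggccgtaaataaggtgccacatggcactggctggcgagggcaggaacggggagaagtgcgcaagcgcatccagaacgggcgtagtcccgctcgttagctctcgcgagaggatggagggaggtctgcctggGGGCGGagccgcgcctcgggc
Chst14 (chr2:118926247-118926496, plus strand): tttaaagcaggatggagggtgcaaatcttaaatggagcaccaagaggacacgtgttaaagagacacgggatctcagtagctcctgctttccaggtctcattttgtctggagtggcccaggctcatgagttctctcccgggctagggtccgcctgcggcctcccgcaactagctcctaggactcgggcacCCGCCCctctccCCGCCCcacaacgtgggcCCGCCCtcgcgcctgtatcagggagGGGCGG

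The upstream Papss2 window holds 2 GC boxes and the other Papss2 window 2 CCAAT boxes. The Chst12 window holds 2 of each, and the Chst14 window 4 GC boxes. The table of start sites held 32 of the 40 genes, with 40 windows. A GC box stood in 26 of the 40 windows (65%), against 32.7% of all 32851 windows of the same length, and a CCAAT box in 15 (37.5%), against 33.8%. The SOX core was found in 1 window, that of Chst3 (2.5% against 16.5%), and the TATA box in 1, that of Hs6st2 (2.5% against 12.4%). The homeodomain core was in none of the 40 windows, against 4.84% of all windows. These are letter matches in a short window and do not show binding.

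Each array gives every probe set 1 MAS5 signal, an intensity that is not logged. Array medians lay between 107 and 121 and the small number of arrays sets the precision. All 15 chondrocyte markers passed the filter, among them Sox9, Col2a1 and Acan. Skeletal muscle markers (10 of 10) and markers of perichondrium and fibroblasts (9 of 10) passed too, so RNA of other cells was measured as well. Hoxc8 gave signals of 4112, 3066, 3755 and 3143 in the control arrays of litters 1 to 4 and 4096, 3400.0, 3810.4 and 4235 in the transgenic arrays, and the groups overlapped. Its difference was 0.15 log2 (SE 0.083), limma adjusted p = 0.9998, and an exact permutation test over the 16 sign changes of the litter differences gave p = 0.25, where 0.125 is the smallest possible. The sources used here do not say whether the transgene's transcript holds the sequence that this probe set reads. Xist, expressed in female cells, ranged from 5726 to 14182 over the 8 arrays, both on transgenic arrays. In bulk samples, fewer cells of a type and less RNA per cell cannot be told apart.

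Between genotypes no gene of glycosaminoglycan synthesis passed the test. The comparison was made within litters, by limma with the litter as a block on log2(signal + 22.2) over all 22519 probe sets past the filter, and 0 of the 34 tested genes had an adjusted p under 0.05 (smallest 0.9998), as did 0 of all 10989 genes (0%). An unadjusted p under 0.05 was seen for 1 of the 34, Papss2, and for 338 of all genes (3.08%), and for 1 of the 59 tested probe sets of these genes, against 3.34% of all probe sets. The fitted difference was above 0 for 23 of the 34 genes and below 0 for 11, against 50.7% above 0 over all genes. Its median was 0.041 log2, against 0.0015 over all genes, and its range -0.15 to 0.21. Median centring of the arrays moved the median of the 34 genes to 0.065, and leaving out litter 4 moved it to 0.024. The 4 litter differences had the same sign for 6 genes (17.6%), against 10.7% of all genes. They were above 0 for Papss2, Slc26a2, Chsy1 and Csgalnact1 (4 genes, against 5.76% of all genes) and below 0 for Slc35b2 and Chst15 (2 genes, against 4.93%). The 4 control and 4 transgenic arrays overlapped for all 34 genes, where they did not overlap for 0.992% of all genes. For the probe set standing for each gene, the 95% interval of the difference lay within 1.5-fold in either direction for all 34 genes (88.9% of all genes). It lay within 1.3-fold for 29 of them (62.7%). The median SE of the 34 genes was 0.096 log2, against 0.11 over all genes. Some dimmer probe sets of these genes had wider intervals, as 1458054_at of Ext1 at 0.43 log2 (SE 0.22).

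**Figure D1:**
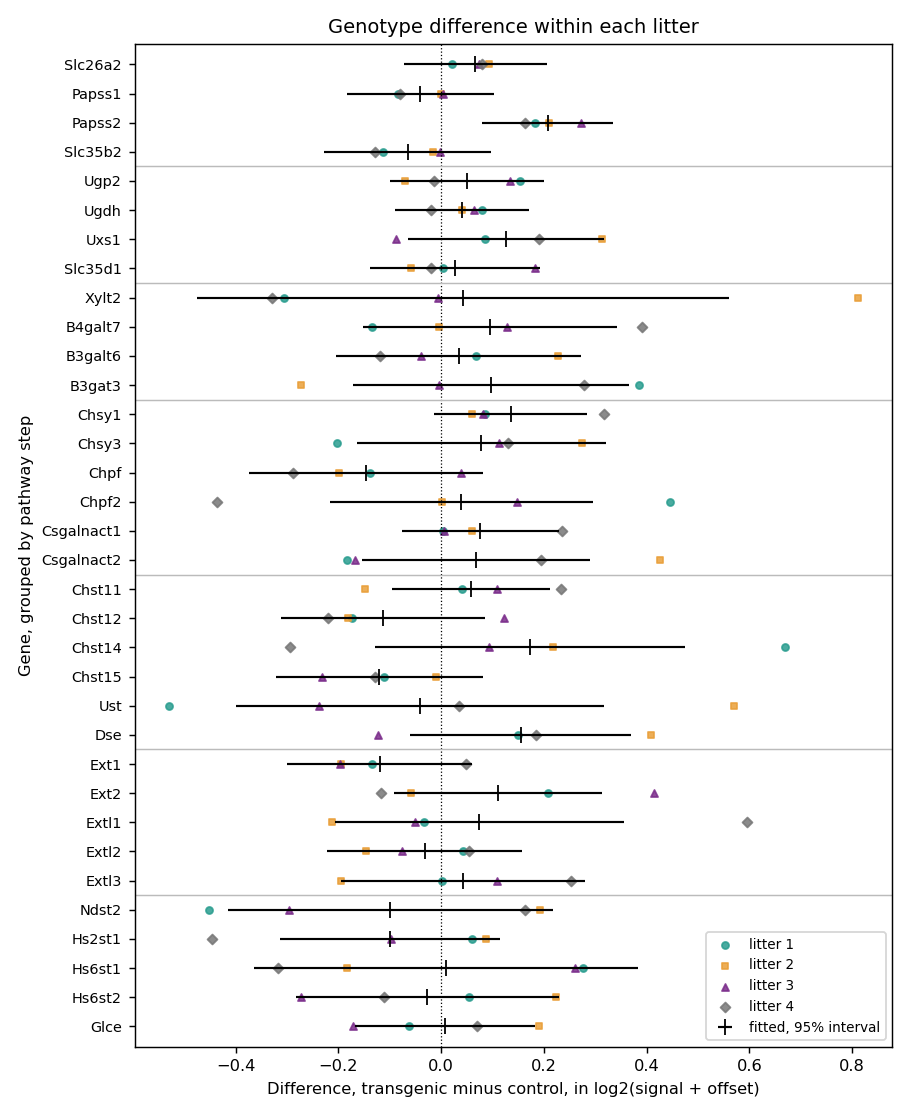
Difference between transgenic and control arrays in log2(signal + offset) for the 34 tested genes (vertical axis, grouped by pathway step), as 1 coloured symbol for each of 4 litters and a black tick with the 95% interval of the limma fit with litter as a block. The Papss2 interval, 0.079 to 0.33, is the only one that leaves out 0, before adjustment for the number of genes tested.

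The sulphate supply step had 2 positive and 2 negative differences, with a median of 0.013 log2. Papss2 makes the universal sulphate donor PAPS and is the form needed in cartilage. It gave signals of 15812, 16985, 14369 and 14707 in the control arrays of litters 1 to 4 and 17957, 19646, 17365 and 16460.1 in the transgenic arrays. The transgenic array was the higher in every litter, at ratios of 1.14, 1.16, 1.21 and 1.12, yet the groups overlapped, since the control array of litter 2 lay above the transgenic array of litter 4. Means were 15468 ± 1184 in control and 17857 ± 1342 in transgenic samples (SD, n = 4). The difference was 0.21 log2 (SE 0.059), with a 95% interval of 0.079 to 0.33, an unadjusted p of 0.0042 and a limma adjusted p of 0.9998. Other probe sets of Papss2 gave smaller differences, 0.028 log2 (SE 0.067) for 1421987_at and 0.060 (SE 0.072) for 1421989_s_at, and the mean over its tested probe sets stood at 0.098. The sister enzyme Papss1 had means of 4430.1 ± 219.9 in control and 4307 ± 240.2 in transgenic samples (SD, n = 4) and a difference of -0.041 log2 (SE 0.066).

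Slc26a2, the sulphate transporter of the cell membrane that is mutated in diastrophic dysplasia, gave 5214, 4798, 5162 and 5221 in the control arrays and 5293, 5118, 5434 and 5514 in the transgenic arrays. Its 4 ratios, 1.02, 1.07, 1.05 and 1.06, were all above 1, and its difference was 0.067 log2 (SE 0.064). Another probe set of Slc26a2 stood at -0.085. Slc35b2, which carries PAPS into the Golgi, gave 2469, 1673, 1968 and 2431 in control and 2280.1, 1655, 1964 and 2220.2 in transgenic arrays. Its transgenic array was the lower in every litter, by small steps (-0.065 log2, SE 0.075), and another probe set of the gene stood at 0.16. Bpnt2, the Golgi phosphatase listed as Impad1, had means of 8582 ± 1319 and 9005 ± 841 (SD, n = 4), with ratios of 0.846, 1.11, 0.906 and 1.46 that fell on both sides of 1. Control and transgenic means were 5099 ± 202 and 5339.8 ± 173.9 for Slc26a2 and 2135 ± 383 and 2029.9 ± 285 for Slc35b2 (SD, n = 4).

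Enzymes of the UDP-sugar supply all had fitted differences above 0, with a median of 0.046 log2, and none passed the test. Uxs1, which makes UDP-xylose for the linker, gave 1452, 1454, 1632 and 1682 in control and 1541, 1813, 1535 and 1923 in transgenic arrays, higher in 3 of 4 litters (0.13 log2, SE 0.087). Ugp2, which makes UDP-glucose, gave 5276, 6080.1, 5127 and 5951 in control and 5868, 5786, 5627 and 5889 in transgenic arrays. Its ratios lay on both sides of 1 (0.050 log2, SE 0.068), and 1 of its 5 tested probe sets had a negative difference. Ugdh, which oxidises UDP-glucose to UDP-glucuronate, had means of 10718 ± 688 in control and 11017 ± 391 in transgenic samples (SD, n = 4), and Slc35d1, which brings UDP-sugars into the endoplasmic reticulum, 2388 ± 91.4 and 2435 ± 142. Their differences were 0.041 log2 (SE 0.060) and 0.027 log2 (SE 0.076). Means in control and transgenic samples were 1555 ± 119.9 and 1703 ± 196 for Uxs1 and 5608 ± 477 and 5793 ± 119 for Ugp2 (SD, n = 4).

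In the linker step, 4 of 5 genes were measured and all 4 had fitted differences above 0, with a median of 0.069 log2. B4galt7 adds the first galactose of the linker and B3gat3 its closing glucuronate. B4galt7 gave 719, 646, 594 and 504 in control and 653, 644, 651 and 667 in transgenic arrays (0.095 log2, SE 0.11). The control array of litter 4 was the lowest of the 8, and without that litter the value was -0.0038, and the suffix of its probe set, 1426304_x_at, marks probes that may bind other transcripts. B3gat3 gave 543, 655, 664 and 586 in control and 716, 539, 662 and 715 in transgenic arrays (0.097 log2, SE 0.12), with ratios of 1.32, 0.822, 0.997 and 1.22 that did not run one way. Another probe set of B3gat3 stood at -0.22 log2. B3galt6, which adds the other galactose, had means of 543 ± 36.3 in control and 556 ± 39.4 in transgenic samples (SD, n = 4). Xylt2, which starts the linker with xylose, had 127 ± 16.6 and 135 ± 46, close to the filter signal, and the widest interval of the 34 genes, -0.48 to 0.56 log2. Control and transgenic means were 616 ± 90.6 and 654 ± 9.77 for B4galt7 and 612 ± 57.5 and 658 ± 83.6 for B3gat3 (SD, n = 4).

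Chondroitin chains are started by Csgalnact1 and Csgalnact2 and lengthened by complexes of Chsy1, Chsy3, Chpf and Chpf2. Of these 6 genes 5 had a positive difference and 1 a negative one, and the median was 0.071 log2. Chsy1 gave 6966, 7162, 6865 and 5152 in control and 7389, 7462, 7260.3 and 6422 in transgenic arrays. The transgenic array was the higher in every litter, with ratios of 1.06, 1.04, 1.06 and 1.25, and the largest ratio was that of litter 4, in which both arrays lay below the other 6. The difference was 0.14 log2 (SE 0.069), with an interval of -0.014 to 0.28 (unadjusted p = 0.0721, limma adjusted p = 0.9998), and it stood at 0.075 without litter 4. Chpf, a partner of the synthases, went the other way in 3 litters, with 754, 661, 648 and 587 in control and 684, 573, 666 and 477 in transgenic arrays (-0.15 log2, SE 0.10), the lowest fitted value of the 34 genes. Csgalnact1 had means of 4278 ± 134 in control and 4526 ± 481 in transgenic samples (SD, n = 4), with 4 ratios above 1, from 1.002 to 1.18. Its value was 0.076 log2 and 0.022 without litter 4, and its other tested probe set stood at -0.026. For Csgalnact2 the means were 2597 ± 388 and 2709.6 ± 311, for Chpf2 2055 ± 142 and 2160.4 ± 511 and for Chsy3 611 ± 182 and 642 ± 177 (SD, n = 4). The Chpf2 ratios ran from 0.736 in litter 4 to 1.37 in litter 1, and its other tested probe set stood at -0.35 log2 against 0.039. Means in control and transgenic samples were 6536 ± 931 and 7133 ± 481 for Chsy1 and 663 ± 69 and 599.8 ± 95.2 for Chpf (SD, n = 4).

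Sulphation of chondroitin and dermatan is shared by 4-O-sulphotransferases (Chst11, Chst12 and Chst13), 6-O-sulphotransferases (Chst3 and Chst7), and enzymes that act on dermatan or on sulphated chains (Chst14, Chst15, Ust and the epimerase Dse). In the 6 tested genes 3 differences were positive and 3 negative, around a median of 0.0087 log2. Chst11, whose loss in mice causes a severe chondrodysplasia, had means of 14121 ± 2338 in control and 14586 ± 976 in transgenic samples (SD, n = 4) and a difference of 0.058 log2 (SE 0.070). Chst15, which adds a sulphate to already sulphated units, gave 979, 864, 956 and 805 in control and 905, 858, 810.5 and 735 in transgenic arrays. It was the lower in the transgenic array of every litter (-0.12 log2, SE 0.092), and another of its probe sets stood at 0.056. Dse, which turns glucuronate into iduronate, gave 1145, 763, 1641 and 1081 in control and 1272, 1020.1, 1504 and 1232 in transgenic arrays, higher in 3 of 4 litters (0.15 log2, SE 0.099). Chst12 stood at -0.11 log2 (SE 0.091). Chst14 stood at 0.17 log2 (SE 0.14), with ratios of 1.62, 1.17, 1.07 and 0.808 in litters 1 to 4, and at 0.0061 without litter 1. Ust, the uronyl 2-O-sulphotransferase, had means of 415 ± 80.2 in control and 404 ± 83.8 in transgenic samples (SD, n = 4), and its 2 tested probe sets stood at -0.041 and 0.35 log2. Control and transgenic means were 1282 ± 282 and 1201 ± 357 for Chst12, 647 ± 187 and 745 ± 243 for Chst14, 901 ± 81.3 and 827 ± 72.6 for Chst15 and 1158 ± 363 and 1257 ± 198 for Dse (SD, n = 4). The dim genes Chst3, Chst7 and Chst13 ranged from 8.06 to 127 over the 8 arrays and were not tested. Their means in control and transgenic samples were 61 ± 35.2 and 35.3 ± 15.2 for Chst3, 81.9 ± 54.5 and 91.9 ± 16.8 for Chst7, and 43.7 ± 38.2 and 41.2 ± 31.6 for Chst13 (SD, n = 4).

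Heparan sulphate chains are polymerised by Ext1 and Ext2, whose loss of function gives multiple exostoses of the growth plate. Of the 5 genes of this step 3 had a positive difference and 2 a negative one (median 0.042 log2). Ext1 gave 1682, 1655, 1659 and 1395 in control and 1530.5, 1443, 1444 and 1444 in transgenic arrays (-0.12 log2, SE 0.083). It was lower in the transgenic array of 3 litters, while a dim probe set of the gene, 1458054_at, stood at 0.43. Ext2 gave 2846, 2568, 2438 and 2437 in control and 3289.6, 2464, 3254 and 2246 in transgenic arrays (0.11 log2, SE 0.093), higher in litters 1 and 3 and lower in litters 2 and 4. Extl2, an Ext-like transferase, gave 992, 1168, 987 and 1355 in control and 1022, 1053, 934 and 1407 in transgenic arrays. Both arrays of litter 4 were the highest for Extl2, and its genotype difference was -0.032 log2 (SE 0.087). The Ext-like genes Extl1 and Extl3 had means of 757 ± 229 in control and 779 ± 117 in transgenic samples and of 624 ± 88.6 and 639 ± 26.1 (SD, n = 4). Means in control and transgenic samples were 1598 ± 135 and 1466 ± 43.3 for Ext1, 2572 ± 193 and 2813 ± 537 for Ext2 and 1125 ± 175 and 1104 ± 208 for Extl2 (SD, n = 4).

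The heparan chain is then modified by N-deacetylase and sulphotransferases (Ndst), by the epimerase Glce and by O-sulphotransferases (Hs2st1, Hs6st1 and Hs6st2). Of the 5 tested genes 2 had a positive difference and 3 a negative one (median -0.027 log2). Hs2st1 gave 1574, 1245, 2051 and 1896 in control and 1642, 1324, 1915 and 1386 in transgenic arrays (-0.099 log2, SE 0.098). Its transgenic array stood lowest against the control in litter 4, without which the value was 0.016, and 2 of its 4 tested probe sets stood above 0. Ndst2 gave 379, 309.6, 489 and 356 in control and 271, 357, 394 and 401 in transgenic arrays (-0.099 log2, SE 0.14), lower in 2 litters and higher in 2. Glce had means of 2508 ± 249 in control and 2519 ± 237 in transgenic samples (SD, n = 4), Hs6st1 of 211 ± 26.3 and 218 ± 69.7, and Hs6st2 of 536 ± 118 and 519 ± 49.2. Their differences were 0.0069, 0.0090 and -0.027 log2, and another tested probe set of Glce stood at -0.21. Control and transgenic means were 1691 ± 358 and 1567 ± 270.1 for Hs2st1 and 383 ± 75.9 and 356 ± 59.7 for Ndst2 (SD, n = 4).

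Over all steps, 18 of the 34 genes had more than 1 probe set past the filter. For 6 of them all tested probe sets had a genotype difference of the same sign, and for 12 they did not. With a litter left out or another setting the sign of the gene's value changed at least once for 19 of the 34 genes. None of the 59 tested probe sets of these genes passed between genotypes.

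The litters were compared next. In the same fit, limma's moderated F-test for the 4 litters, with genotype in the model, passed at an adjusted p under 0.05 for 5 of the 34 genes (14.7%), against 10.9% of all genes, so the share was near that of the array as a whole. The 5 genes were Chst12, Chsy3, Dse, Slc35b2 and Chst14. Unadjusted p under 0.05 was seen for 10 of the 34, against 29.9% of all genes. All 5 calls rest on a variance prior that follows the signal level. Without that trend 0 of the 34 and 0 of all 10989 genes passed, the smallest adjusted p being 0.0687, while 6 of the 34 and 2279 of all genes had an unadjusted p under 0.05.

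**Figure D2:**
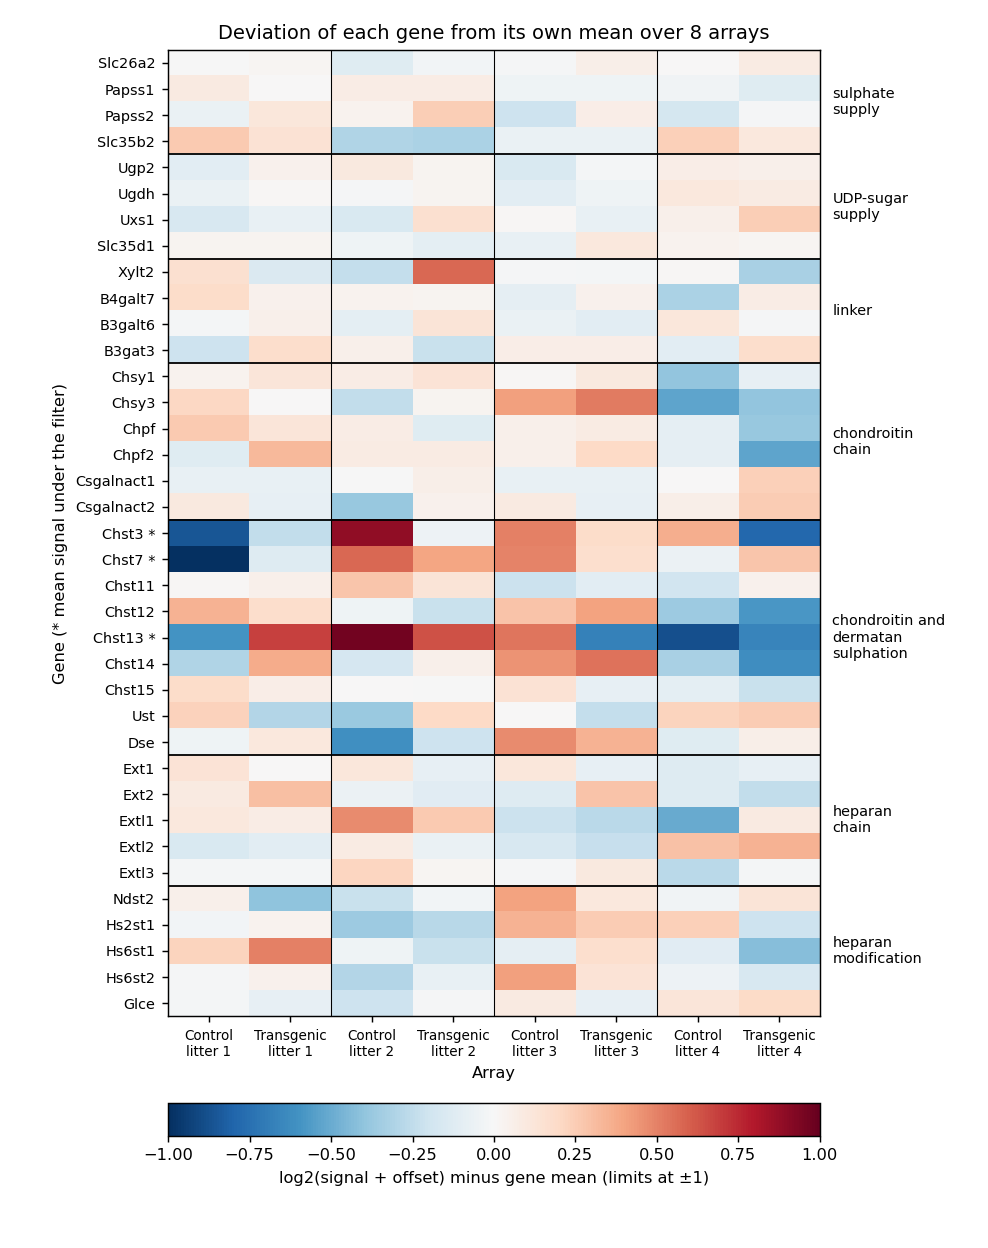
Deviation of log2(signal + offset) from each gene's own mean over 8 arrays (colour, blue below and red above, limits at ±1) for 37 genes (rows, by pathway step) and 8 arrays (columns, control beside transgenic of each litter). Chsy3, Chst12 and Chst14 are blue in both arrays of litter 4 and red in both arrays of litter 3, and the 3 dim genes marked * vary most.

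Chst12, a chondroitin 4-O-sulphotransferase, gave 1545, 1175, 1474 and 933 in the control arrays of litters 1 to 4 and 1367, 1034, 1606 and 798 in the transgenic arrays. Both arrays of litter 4 lay below the other 6, and the highest litter stood 1.76-fold over the lowest (F-test adjusted p = 0.00564). Chst14, the dermatan 4-O-sulphotransferase, gave 539, 595, 924 and 529.6 in control and 871, 695, 987 and 428 in transgenic arrays. Litter 3 was the highest and litter 4 the lowest, 1.96-fold apart (adjusted p = 0.0366), and the arrays of litter 1 differed by genotype more than those of the other litters. Chsy3, a chondroitin synthase, gave 704, 509, 815 and 415 in control and 609, 619, 882 and 456 in transgenic arrays. It had the same order at its ends, with litter 3 above and litter 4 below, 1.9-fold apart (adjusted p = 0.0147).

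In Dse and Slc35b2 the lowest litter was litter 2. Dse stood highest in litter 3 and lowest in litter 2, 1.76-fold apart (F-test adjusted p = 0.0173), and Slc35b2 highest in litter 1 and lowest in litter 2, 1.42-fold apart (adjusted p = 0.0231). Each call was lost without some litters. Without litter 4 the adjusted p was 0.0703 for Chst12, 0.0978 for Chsy3 and 0.1 for Chst14. Without litter 3 it was 0.151 for Chsy3, 0.264 for Chst14 and 0.127 for Dse, and without litter 2 0.121 for Dse, 0.217 for Slc35b2 and 0.0726 for Chst14. With the mean over all probe sets of a gene it was 0.101 for Slc35b2 and 0.181 for Chsy3. The 3 genes next in order of p did not pass, namely Extl2, Hs2st1 and Chsy1, with F-test adjusted p of 0.0532, 0.0576 and 0.0796. A dimmer probe set of Hs2st1, 1440905_at, did pass (F-test adjusted p over all probe sets = 0.0462). Its signals were highest in litter 2 and lowest in litter 3, where those of the probe set standing for the gene were lowest in litter 2 and highest in litter 3.

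**Figure D3:**
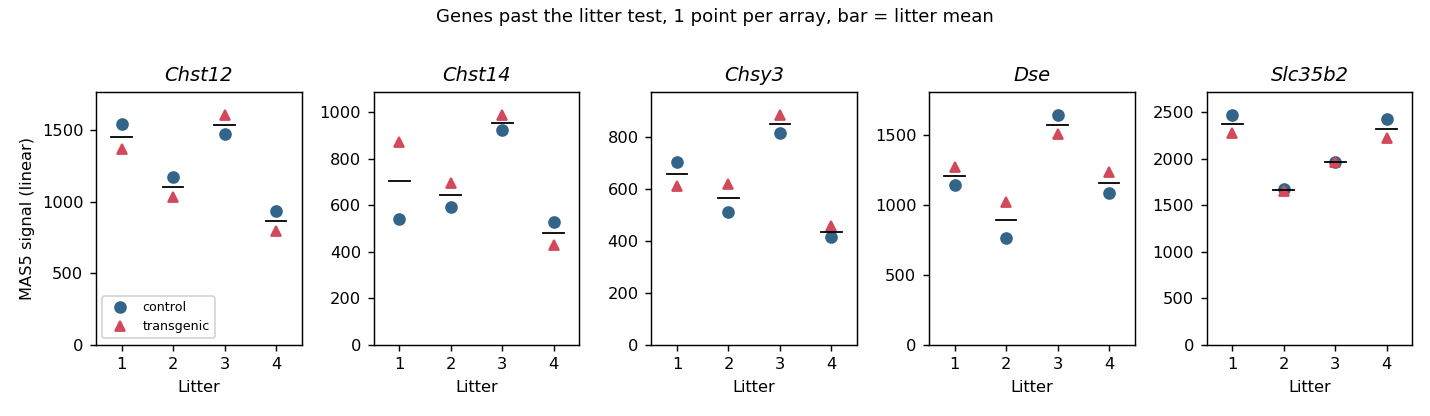
MAS5 signal on a linear axis from 0 against litter for the 5 genes past the litter test, with 1 circle per control array, 1 triangle per transgenic array and a bar at the mean of the litter. The points of Chst12, Chst14 and Chsy3 are lowest in litter 4, and those of Dse and Slc35b2 in litter 2.

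Litter 4 was the lowest of the 4 litters for 15 of the 34 genes (44.1%), against 29% of all genes, and both of its arrays lay below the other 6 for 6 genes (17.6%), against 11.4%. The 6 genes were Chsy1, Chsy3, Chst12, Chst14, Chst15 and Ext2, the last by a small step, since its control arrays stood at 2437 in litter 4 and 2438 in litter 3. A sign of RNA quality moved with this. The ratio of 5-prime to 3-prime signal of the beta-actin control probe sets was 0.512 and 0.475 in the control and transgenic arrays of litter 4 and 0.59 to 0.647 in the other 6. For Gapdh it was 1.17 and 1.14 against 1.26 to 1.36. Its part in the litter differences was not tested.

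Different probe sets of the same gene did not show litter 4 alike. For Papss2, probe set 1421987_at gave 6408, 7364, 6201 and 4270.4 in control and 6881, 7650.3, 6505 and 3944 in transgenic arrays. The mean of litter 4 was 0.601 times that of the other litters (F-test adjusted p over all probe sets = 0.00112). Probe set 1421989_s_at stood at 0.66 times (adjusted p = 0.00557), while 1434510_at, which stands for the gene because it is the brightest, stood at 0.915 times and did not pass (adjusted p = 0.202). Chst11, the main chondroitin 4-O-sulphotransferase of cartilage, showed a like split between its 2 tested probe sets. Probe set 1450509_at gave 1373, 1809.8, 1407 and 992 in control and 1515, 1905, 1485 and 787 in transgenic arrays, with litter 4 at 0.562 times the others (adjusted p = 0.00407). Its brighter probe set 1428902_at gave 14355, 17342, 12309 and 12481 in control and 14755, 15635, 13274 and 14679 in transgenic arrays, with litter 4 at 0.929 times (adjusted p = 0.104). Papss2 and Chst11 were singled out here after their values were seen. The difference between probe sets was not tested. In all, 9 of the 59 tested probe sets of these genes passed the litter test, against 9% of all probe sets.

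**Figure D4:**
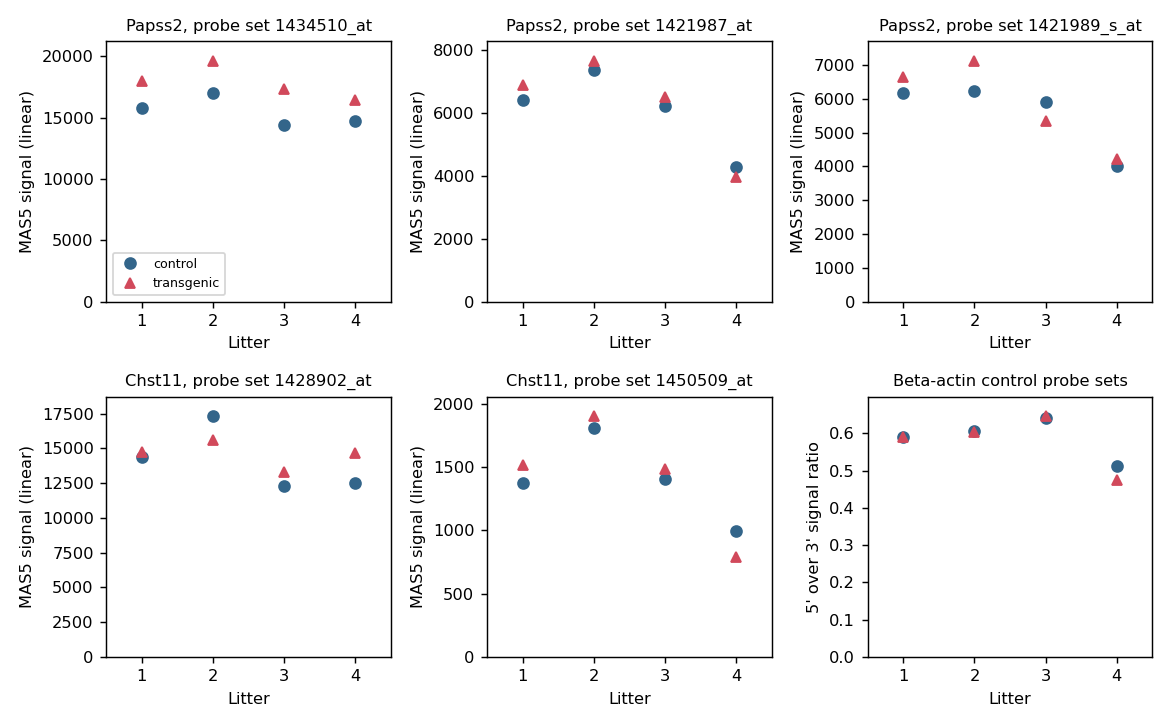
MAS5 signal on linear axes from 0 against litter for 3 probe sets of Papss2 and 2 of Chst11 (circles control, triangles transgenic, 1 point per array), and the 5-prime to 3-prime signal ratio of the beta-actin control probe sets. Both arrays of litter 4 are the lowest for 1421987_at, 1421989_s_at, 1450509_at and the beta-actin ratio, but not for 1434510_at and 1428902_at.

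Marker sums of cell types also differed by litter. The summed signal of the 15 chondrocyte markers averaged 375367, 419397, 353336 and 340142 in litters 1 to 4, lowest in litter 4 and highest in litter 2. Of the 15, 4 passed the litter test, against 10.9% of all genes. Litter 4 was also the lowest for the sums of hypertrophic chondrocyte (11347, 12498, 10775 and 9374), osteoblast (1445, 1682, 1794 and 1280.3) and endothelial markers (1242, 1264, 1327 and 898), and for perichondrium and fibroblasts. A sum follows its brightest genes. Counted by tested gene, litter 4 was the lowest for 7 of 15 chondrocyte and 2 of 5 hypertrophic chondrocyte markers. For osteoblast markers it was the lowest in 2 of 5 and for endothelial markers in 5 of 5, against 29% of all genes. Past the litter test were 2 of 5 tested hypertrophic chondrocyte markers, 0 of 5 osteoblast and 0 of 5 endothelial markers. In other lists, 1 of 3 tested erythroid, 2 of 4 neutrophil and 2 of 6 macrophage and osteoclast markers passed. Sums of the 10 skeletal muscle markers were 37907, 27259.5, 28682 and 40778, with litters 1 and 4 above litters 2 and 3 as for Slc35b2, and 5 of 10 passed. The 10 perichondrium and fibroblast markers summed to 171943, 164890.0, 181303 and 151330.0, and 3 of the 9 tested passed. The order of this sum, litters 3, 1, 2 and 4, was also that of Chst12, Chst14 and Chsy3. Single genes of the list did not share it. Litter 4 was the lowest for 4 of the 9, and litter 2 for Postn, Dpt, Tnmd, Pdgfra and Thy1. Mast cell markers (6 listed) summed to 458, 267, 1437 and 549, and both tested genes, Cpa3 and Cma1, passed. Kit, Mcpt4, Tpsb2 and Fcer1a lay under the filter. The part of these cell types in the litter differences was not tested. Between genotypes no tested marker gene of any list passed.

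By genotype, the marker sums overlapped. Chondrocyte markers summed to 335958 to 440021 in control and 344325 to 398773 in transgenic arrays, skeletal muscle markers to 27920.0 to 41975 in control and 26599 to 39580.3 in transgenic arrays, and neutrophil markers to 1957 to 5749 in control and 1963 to 3782 in transgenic arrays. Differences were negative for 4 of 4 tested neutrophil markers (median -0.33 log2), 3 of 3 erythroid (median -0.16), 5 of 6 macrophage and osteoclast (median -0.16) and 8 of 9 perichondrium and fibroblast markers (median -0.070). The 2 tested mast cell markers stood at 0.011 (Cma1) and 0.56 (Cpa3), with a median of 0.28. The Cpa3 ratios were 1.51, 7.64, 1.02 and 0.913 in litters 1 to 4, with a control signal of only 13.8 in litter 2. Over all genes, 50.7% of differences were above 0. Of the 15 chondrocyte markers, 6 were positive and 9 negative (median -0.032 log2). Limma gave an unadjusted p under 0.05 for 4 of the 15, against 3.08% of all genes. They were Sox5 (-0.20), Col2a1 (-0.18), Matn1 (-0.25) and Col9a2 (0.27) (limma adjusted p = 0.9998 for each). Sox5 was lower in every litter, and the Col2a1 ratios were 0.879, 0.712, 0.966 and 0.999. An unadjusted p under 0.05 was also seen for 2 of 4 tested neutrophil markers, S100a8 (-0.37) and S100a9 (-0.42). In skeletal muscle it was seen for 2 of 10, Myh3 (0.56) and Tnni2 (-0.18), and in the other lists for none. Skeletal muscle had 4 positive and 6 negative, and the hypertrophic chondrocyte, osteoblast and endothelial lists 2 and 3 each. The neutrophil genes Camp, Ltf, Elane and Mpo lay under the filter. The part of these cell types in the genotype values was not tested.

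Other genes of the pathway, from lists made by function, gave no calls between genotypes either (0% of all genes). Of 16 tested further enzymes of synthesis and sulphation, the difference was above 0 in 4 and below 0 in 12, around a median of -0.025 log2. The litter test passed for 2 of these enzymes (12.5%, against 10.9% of all genes). The 3 with the smallest genotype p were B4galt1, a galactosyltransferase (-0.13), Dsel, an epimerase related to Dse (-0.097), and Pxylp1, the phosphatase of the linker xylose (0.093). Of 12 genes of nucleotide sugar and sulphate metabolism 7 were positive and 5 negative, with a median of 0.0074, and 1 passed the litter test (8.33%). Named by the same rule were Slc35d2, a nucleotide sugar transporter (-0.23), Bpnt1, the cytosolic PAP phosphatase (0.12), and Gfpt1, which opens hexosamine synthesis (0.065). The Slc35d2 value had an SE of 0.20, and its mean signal of 122 lay close to the filter signal of 110.

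Of 13 genes of glycosaminoglycan breakdown 5 were positive and 8 negative, with a median of -0.020 log2. Heparanase (Hpse), which cuts heparan sulphate, stood at 0.28 log2 (SE 0.17) with 4 positive litter differences, Sumf1, which activates sulphatases, at -0.11 and the hyaluronidase Hyal2 at 0.11. In this list 2 genes passed the litter test (15.4%, against 10.9% of all genes). Of 19 core proteins that carry the chains 8 were positive and 11 negative, with a median of -0.021. Against 3.08% of all genes, 3 of the 19 had a limma unadjusted p under 0.05. They were Col9a2, a chain of the cartilage collagen IX, at 0.27 log2 (SE 0.097), higher in 4 of 4 litters, Agrn (agrin) at -0.24 log2 (SE 0.098) and Sdc2 (syndecan-2) at -0.23 log2 (SE 0.091), each lower in 3 of 4 litters (limma adjusted p = 0.9998 for each). Without litter 4 the value of Col9a2 was 0.12, without litter 1 that of Sdc2 was -0.14, and without litter 3 that of Hpse was 0.16. The litter test passed for 8 of the 19 core proteins (42.1%), against the 10.9% of all genes. Acan, the aggrecan core protein, gave 28330.2, 29993, 27145 and 22259 in control and 29208, 32666, 28219 and 21014 in transgenic arrays. Its litter 4 arrays were the lowest in both genotypes (F-test adjusted p = 0.00929), and its genotype difference was 0.035 log2 (SE 0.060).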

How the data were processed

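MAS5 signal intensities, 1 per probe set for each of 8 Affymetrix arrays, were used as the authors deposited them; MAS5 is named in the submitters' processing notes, and each array's trimmed mean is 500 in the deposited values. Of 45101 probe sets, 34945 have 1 gene symbol in the platform annotation, 932 several and 9160 none. Probe sets were kept where their mean over the arrays reached the median of such means, 110. To every signal 22.2, the 20th percentile of the deposited values, was added before log2. Tests used limma 3.58.1 in R 4.3.3 (lmFit, eBayes with trend) with genotype and litter as terms, and Benjamini-Hochberg adjustment over all probe sets or all genes. The litter block follows the labels, which give both arrays of a replicate the same litter number. The correlation of same-litter deviations was 0.0251, 0.434, 0.376 and 0.379 in litters 1 to 4. Between arrays of different litters it ran from -0.353 to 0.0630, and the value of litter 1 lay within that range. The code was tested on simulated data. There, a genotype difference of 0.5 log2 was recovered for 8% of the 100 probe sets given it, and one of 1 log2 for 46%. For differences of 0.5 and 1 log2 put on litter 4 alone, with no other litter differences in the simulated data, the shares were 0% and 15%. In the data litters differ in many more probe sets, so these shares need not hold for the litter test there.

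Group means are given for the 37 measured genes and Bpnt2. Values per array are given for the 2 genes of each step with the smallest genotype p, for the 8 with the smallest litter p, and for genes past a threshold. The genes and lists were chosen with earlier results of these data known. The probe sets that do not stand for a gene, and the beta-actin ratio, were added after seeing the data. Promoter sequences are from RefSeq (GRCm38.p6). The genotype p-values set the mean difference within litters against the spread of that difference over these 4 litters. The litter p-values set the differences between litters against the same within-litter spread. In both, the variance was drawn towards a prior taken from all tested probe sets.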

Additional observations from a re-analysis of the deposited data

Results flagged for a closer look

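In the 74 groups of 4 arrays examined (37 genes in either genotype), 6 held an array that stood apart from the other 3 by more than Dixon's 95% critical value, where chance flags about 1 in 20 groups. Slc26a2 stood at 4798 in the control array of litter 2, below the next lowest at 5162. Chsy1 stood at 5152 in the control array of litter 4, below 6865, and Csgalnact2 at 2018 in that of litter 2. Chst14 had a high control array in litter 3, at 924 against 595 for the next. Ext1 was low in the control array of litter 4, at 1395, and high in the transgenic array of litter 1, at 1530.5, where the other 3 transgenic arrays lay between 1443 and 1444.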

How the results depend on the processing

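No probe set, gene or listed gene passed between genotypes under any setting run, including the fit with no replicate block, and 20 to 24 listed genes had a positive difference. The probe sets with an unadjusted p under 0.05, 752 with litter as a block, numbered 246 with no replicate block, 1769 with no filter, 321 with a mean signal of at least 500, and 642 to 1066 with a litter left out. Past the litter test were 995 probe sets and 788 genes with no filter, 0 probe sets, 0 genes and 0 listed genes with eBayes without trend (2279 genes had an unadjusted p under 0.05), and, with a litter left out, 562 to 3047 probe sets, 430 to 1659 genes and 2 to 7 of the listed genes; the lowest counts came without litter 2 and the highest without litter 1. The cause of these shifts was not tested. Without trend the F-test adjusted p was 0.126 for Chst12, 0.136 for Chsy3, 0.166 for Dse, 0.18 for Slc35b2 and 0.201 for Chst14. With the mean over probe sets it was 0.101 for Slc35b2 and 0.181 for Chsy3, and with no filter 0.0699 for Chst14. The median difference of the listed genes was 0.065 log2 after median centring and 0.024 to 0.047 with a litter left out. Among the 19 genes given per array, 335 values kept sign and side of the threshold, 17 litter calls were lost and 16 differences changed sign. Over all 34 tested genes the sign changed 27 times, in 19 genes, and 13 other probe sets of 12 genes had the opposite sign. Values for the 19 genes follow. The mean over probe sets gave -0.060 for B3gat3, 0.15 for Ext1, 0.057 for Hs2st1 and 0.047 for Slc35b2. Other probe sets gave -0.22 for B3gat3, 0.056 for Chst15, 0.43 for Ext1, 0.19 and 0.23 for Hs2st1, -0.085 for Slc26a2, 0.16 for Slc35b2 and -0.015 for Ugp2. With a litter left out the range was -0.0038 to 0.17 for B4galt7, -0.060 to 0.0063 for Extl2, -0.16 to 0.016 for Hs2st1 and -0.20 to 0.019 for Ndst2. Signals near the filter (Xylt2, Hs6st1) have the widest intervals, and 4 litters limit the precision of all values.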
